A study of Rattus norvegicus with 10 samples.

Results

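The genes described here are 10 genes of leukocyte recruitment measured in rat kidney: the chemokines Cxcl1, Cxcl2, Cxcl10, Ccl2, Ccl3, Ccl7, Ccl20 and Cx3cl1, the chemokine receptor Ccr2, and Csf1, a growth factor of the monocyte lineage. They were taken by symbol from the platform's probe annotation, and all 10 were found, each with 1 probe set, among 14506 named genes and 29214 probe sets. The rule takes genes by name, and the list of names was drawn up with earlier results of these data known. Male weanling Wistar rats were fed for 6 days, and each of the 10 arrays held kidney RNA pooled from 3 animals, with 2 pools in every group. The groups were necrotic kidneys (choline-deficient diet with vegetable oil), deficient vegetable oil kidneys (the same diet, without the word necrotic in the label), control vegetable oil kidneys (choline given), deficient fish oil kidneys (choline-deficient diet with menhaden oil) and control fish oil kidneys (choline given with menhaden oil). The vegetable fat is named corn oil in the sample labels and corn and hydrogenated oils in the protocol. The deficient vegetable oil kidneys are called the early stage below, but all animals were killed after the same number of days, so a stage is a state of the tissue and no time course was measured. How animals were sorted into necrotic and other pools is not given in the sources used here, and a pool hides the differences between its animals.

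Chemokines are small secreted proteins that draw leukocytes out of the blood along a gradient, and they are grouped by the spacing of their first cysteines into CXC, CC and CX3C families. CXC ligands such as Cxcl1 and Cxcl2 act mainly on neutrophils through the receptor Cxcr2, Cxcl10 acts on activated T and NK cells through Cxcr3, and Ccl2 and Ccl7 call Ccr2-bearing monocytes out of the bone marrow and into injured tissue. In the injured kidney, tubule cells, endothelium and the arriving macrophages are all known sources of these ligands, and Csf1 made by tubule cells sustains the macrophages that clear debris and take part in repair.

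The arrays held log2 intensities made by the authors with RMA, a method that corrects background, equalises the arrays and summarises probes into 1 value per probe set. Array medians lay between 7.28 and 7.43. A difference of 1 on this scale is a doubling, and levels of different probe sets cannot be set against each other. Kidney identity was plain in every array: Slc34a1, which takes phosphate back up in the proximal tubule, lay between 10.43 and 14.03, and Umod, uromodulin of the thick ascending limb, between 10.40 and 13.81, both lowest in the necrotic pools. The pools of the deficient vegetable oil group were unequal. Over all probe sets replicate 2 lay 0.422 log2 units (root mean square) from the mean of the necrotic arrays and replicate 1 lay 0.541 from it. From the mean of the control vegetable oil arrays replicate 2 lay 0.415 and replicate 1 lay 0.323, so replicate 2 was about equally far from both groups. Each ± is the standard error that limma moderates across probe sets in a fit of all 10 arrays, and the adjusted p are Benjamini-Hochberg values over all 29214 probe sets, with a threshold of 0.05. "Rose" and "fell" refer to that threshold only.

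The promoter windows below are those of the 3 CXC ligands, of which Cxcl2 and Cxcl10 moved in opposite directions between the stages, and of Cx3cl1, whose level differed least from control at the early stage. They come from RefSeq on build GRCr8, run 250 bases before to 50 bases after the start of the gene, and read along the gene's own strand. Of the 10 genes 7 matched an entry (Cxcl1, Cxcl2, Cxcl10, Ccl7, Ccl20, Cx3cl1 and Ccr2). Cxcl2 (chr14:17467206-17467505, minus strand) and Cxcl1 (chr14:17479272-17479571, minus strand) are neighbours, Cxcl10 (chr14:15988816-15989115, plus strand) lies on the same chromosome, and Cx3cl1 lies at chr19:10242771-10243070, minus strand. Capitals mark matches to the NF-kappaB consensus, to the interferon response element core (GAAA, any 2 bases, GAAA), to the AP-1 site TGANTCA or to TATAAA, each searched on both strands.
Cxcl2: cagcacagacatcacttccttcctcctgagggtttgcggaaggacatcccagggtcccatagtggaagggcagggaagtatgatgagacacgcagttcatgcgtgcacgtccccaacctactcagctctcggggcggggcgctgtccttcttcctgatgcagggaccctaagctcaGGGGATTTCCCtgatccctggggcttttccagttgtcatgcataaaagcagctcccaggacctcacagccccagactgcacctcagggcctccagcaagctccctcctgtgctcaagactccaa
Cxcl1: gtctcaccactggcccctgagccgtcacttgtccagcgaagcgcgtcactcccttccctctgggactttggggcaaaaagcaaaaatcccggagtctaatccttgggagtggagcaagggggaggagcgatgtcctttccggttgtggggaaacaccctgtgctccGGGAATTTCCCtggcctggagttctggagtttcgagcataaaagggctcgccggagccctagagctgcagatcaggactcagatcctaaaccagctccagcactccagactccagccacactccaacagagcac
Cxcl10: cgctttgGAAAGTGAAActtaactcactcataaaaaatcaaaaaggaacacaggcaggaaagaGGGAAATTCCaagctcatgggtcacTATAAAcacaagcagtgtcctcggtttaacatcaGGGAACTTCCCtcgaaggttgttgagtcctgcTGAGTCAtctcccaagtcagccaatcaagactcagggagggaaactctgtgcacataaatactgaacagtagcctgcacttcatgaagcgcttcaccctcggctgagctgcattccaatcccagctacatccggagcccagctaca
Cx3cl1: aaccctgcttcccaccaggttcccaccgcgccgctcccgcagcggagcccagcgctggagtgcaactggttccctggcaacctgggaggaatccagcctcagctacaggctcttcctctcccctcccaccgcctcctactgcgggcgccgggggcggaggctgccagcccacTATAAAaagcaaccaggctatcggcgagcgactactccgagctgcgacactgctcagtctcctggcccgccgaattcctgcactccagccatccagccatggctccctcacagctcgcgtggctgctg

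An NF-kappaB consensus match, the letters bound by the main transcription factor of inflammation, was present in 5 of the 7 windows (Cxcl1, Cxcl2, Cxcl10, Ccl7 and Ccl20) and in 7.51% of 33469 rat promoter windows of the same length. The capitals hold 2 overlapping matches each in Cxcl1 and in Cxcl2, as GGGAATTTCCC and GGGGATTTCCC, close to the start site. In Cxcl10 they hold GGGAAATTCC and a pair of overlapping matches in GGGAACTTCCC. Cxcl10 alone of the 7 windows held the interferon element core, as GAAAGTGAAA, which 3.92% of all windows hold. The AP-1 letters were in the windows of Cxcl10 and Ccl7 (7.33% of all windows), and TATAAA was in those of Ccl7, Cxcl10 and Cx3cl1 (14.2% of all windows). The window of Ccr2 held none of these letters and is not printed. A match describes letters and shows no binding.

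The first comparison set necrotic kidneys against early-stage kidneys on the same deficient diet. The chemokines divided. Cxcl2, a neutrophil attractant, and Ccl3, a ligand of Ccr1 made largely by macrophages, were far higher in necrotic kidneys. Cxcl10, the interferon-inducible ligand, and Ccr2, the receptor of Ccl2 on monocytes, were lower there. Ccl7 and Csf1 stood at nearly the same level at both stages. Of the 10 genes 2 rose and 2 fell, against 9.79% of all probe sets called, 4.71% that rose and 5.08% that fell. The median log2 difference of the 10 was -0.19, and that of all named genes was close to 0.

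Cxcl2 was measured at 9.54 and 8.90 in necrotic kidneys, against 6.28 and 5.83 in deficient vegetable oil kidneys. The control vegetable oil pools gave 5.04 and 4.95, the deficient fish oil pools 5.07 and 4.67, and the control fish oil pools 5.0 and 4.62. Both necrotic pools stood clear of every other array, and the early-stage pools stood above the remaining arrays. The necrotic level was higher than the early one by 3.17 ± 0.25 (adjusted p = 0.000317), which is 8.99-fold. Cxcl2 kept this call in all 13 alternatives in which it was tested.

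Ccl3 was measured at 10.74 and 10.60 in necrotic kidneys, against 8.43 and 8.75 in deficient vegetable oil kidneys. It lay at 7.64 and 7.56 in control vegetable oil, 7.46 and 7.36 in deficient fish oil and 7.27 and 7.34 in control fish oil kidneys. The 3 vegetable oil groups were fully separated, in the order necrotic, early stage and control. The difference between necrotic and early kidneys was 2.09 ± 0.13 (adjusted p = 0.000141), or 4.24-fold.

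Cxcl10 ran the other way. It was measured at 9.19 and 9.53 in necrotic kidneys, against 11.20 and 10.94 in deficient vegetable oil kidneys. The control vegetable oil pools gave 9.76 and 9.78, the deficient fish oil pools 9.34 and 9.12 and the control fish oil pools 9.33 and 9.16. The early-stage pools were the highest of the series, and both necrotic pools lay below both vegetable oil controls. Cxcl10 fell by 1.71 in necrotic relative to early kidneys (SE 0.16, adjusted p = 0.000638), 3.28-fold, and the call held in all 14 alternatives.

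Ccr2 was measured at 8.27 and 8.13 in necrotic kidneys, against 9.01 and 10.46 in deficient vegetable oil kidneys. The control vegetable oil pools gave 7.88 and 7.86, the deficient fish oil pools 6.98 and 7.23 and the control fish oil pools 7.31 and 7.05. The early-stage pools were again the highest, but they lay far apart. Ccr2 fell by 1.53 in necrotic relative to early kidneys (SE 0.38, adjusted p = 0.037). Without deficient vegetable oil replicate 2, the pool nearer to the necrotic arrays over all probe sets, the difference was -0.81 (adjusted p = 0.0255), and without replicate 1 it was -2.26. The call ended without necrotic replicate 1 or 2 (adjusted p = 0.106 and 0.145) and when only these 2 groups were fitted (adjusted p = 0.153).

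The other 6 genes did not pass between the stages. Ccl7, a Ccr2 ligand, gave 7.67 and 7.15 in necrotic kidneys and 7.68 and 7.10 in deficient vegetable oil kidneys, a difference of 0.02 with a 95% confidence interval of -0.46 to 0.51. Csf1 gave 10.01 and 9.81 in necrotic kidneys and 9.98 and 9.90 in deficient vegetable oil kidneys, a difference of -0.02 with an interval of -0.35 to 0.31. For both genes the pools of the 2 stages overlapped. Ccl2, the main monocyte attractant, gave 12.87 and 12.28 in necrotic kidneys, below both deficient vegetable oil pools at 13.34 and 13.31, with a difference of -0.75 ± 0.67 (interval -2.27 to 0.78). Ccl20, the ligand of Ccr6 on dendritic cells and some lymphocytes, gave 7.16 and 7.14 in necrotic kidneys, against 7.42 and 8.02 in deficient vegetable oil kidneys (difference -0.57 ± 0.19, adjusted p = 0.0979). Cx3cl1, the membrane-bound ligand of Cx3cr1, gave 10.89 and 10.98 in necrotic kidneys, against 11.32 and 11.27 in deficient vegetable oil kidneys (difference -0.36 ± 0.14, adjusted p = 0.145). Cxcl1 gave 9.46 and 8.41 in necrotic kidneys and 8.99 and 7.92 in deficient vegetable oil kidneys, so that pools of a group differed by more than the group means (difference 0.48 ± 0.38, adjusted p = 0.535).

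**Figure D1:**
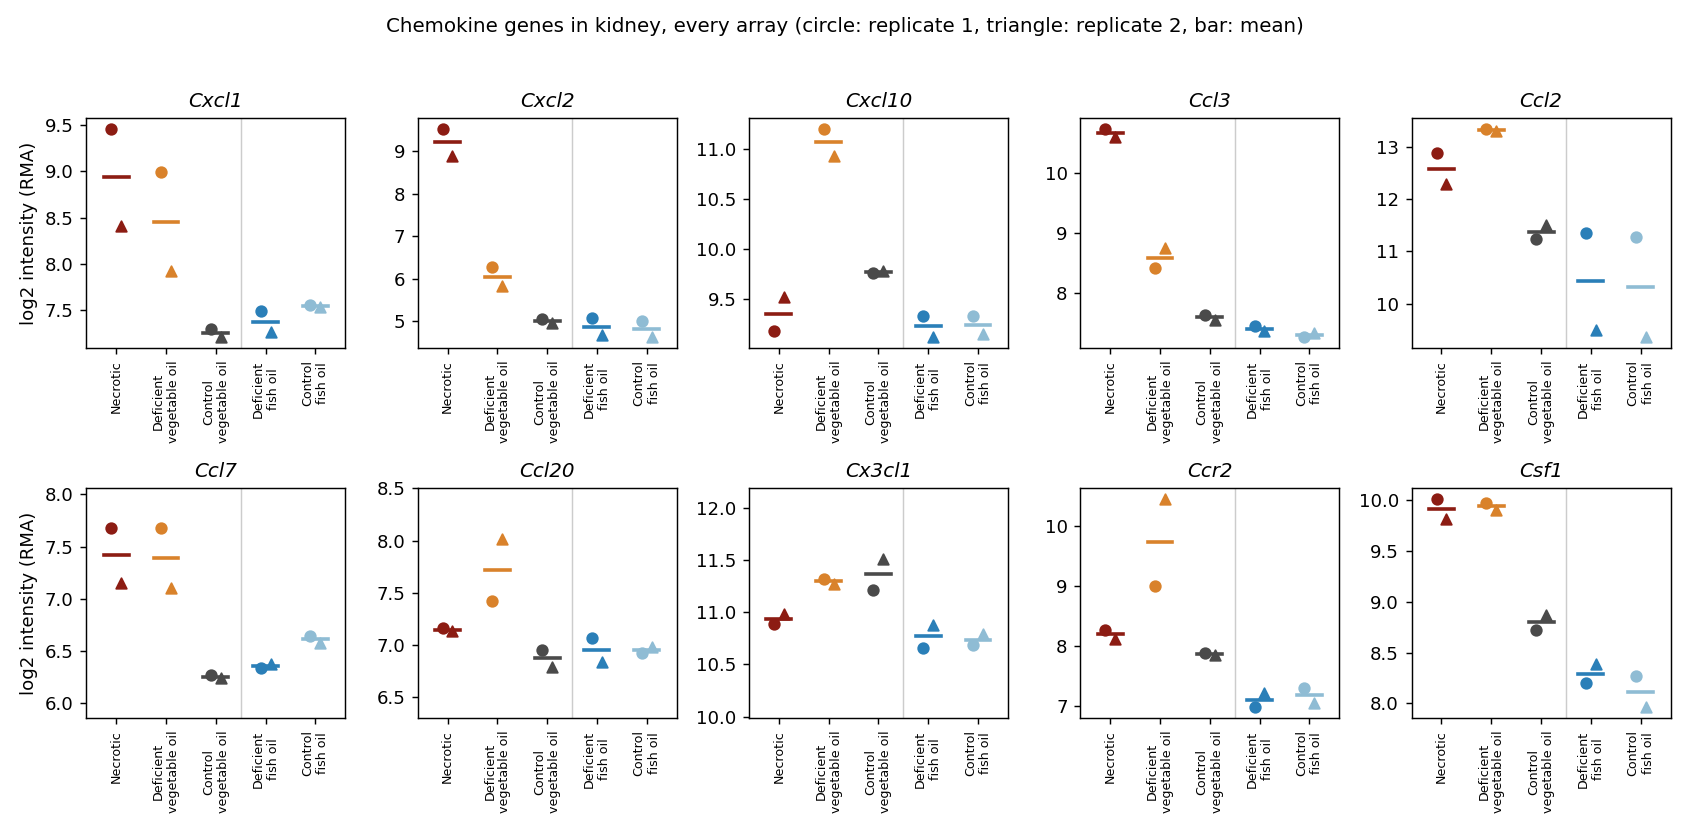
Log2 intensity of the 10 genes on every array, by group, with circles for replicate 1, triangles for replicate 2 and a bar at the mean of both; each panel has its own axis, which does not start at 0. Cxcl2 and Ccl3 stood highest in necrotic kidneys, Cxcl10 and Ccr2 in deficient vegetable oil kidneys, and Ccl2 gave 9.50 and 9.36 in replicate 2 of the fish oil groups.

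The next comparison, of early-stage with control vegetable oil kidneys, asked which of these genes moved when choline was lacking and the kidney was not labelled necrotic. Ligands of all 3 families were measured, and all but Cx3cl1 had higher means in deficient than in control pools, as did Ccr2 and Csf1. Of the 10 genes 4 rose (Cxcl10, Ccl3, Ccl7 and Csf1) and none fell, against 1.13% of all probe sets called, 0.893% that rose and 0.236% that fell. The median difference of the 10 was 1.14, while that of all probe sets was 0.01. Without either control vegetable oil array in turn the count was 0, and when only these 2 groups were fitted it was 1.

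Csf1 lay at 9.98 and 9.90 in deficient vegetable oil kidneys, against 8.72 and 8.87 in control vegetable oil kidneys, a rise of 1.14 ± 0.14 (adjusted p = 0.00945) or 2.21-fold. The groups did not overlap, and pools within each lay within 0.2 of each other. Csf1 encodes macrophage colony-stimulating factor, which acts on the receptor Csf1r of monocytes and macrophages. Cxcl10 rose by 1.30 ± 0.16 (adjusted p = 0.00811), Ccl3 by 0.99 ± 0.13 (adjusted p = 0.0133), and Ccl7 by 1.14 ± 0.21 (adjusted p = 0.0477). The Ccl7 call was the least stable: it ended under median centring, a second quantile normalization and cyclic loess, and without deficient vegetable oil replicate 1. Without deficient vegetable oil replicate 2 the calls were those of Cxcl10, Ccl7 and Ccr2, and those of Ccl3 and Csf1 ended.

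Ccl2 had the largest early difference of the 10, at 13.34 and 13.31 in deficient vegetable oil kidneys, against 11.24 and 11.50 in control vegetable oil kidneys. These pools agreed closely within each group and did not overlap between them. The difference was 1.96 ± 0.67, or 3.88-fold, and it did not pass (adjusted p = 0.233). Its standard error carries the spread between the fish oil pools, which were 11.36 and 9.50 in the deficient and 11.27 and 9.36 in the control group. When only the vegetable oil groups compared were fitted, Ccl2 had an adjusted p of 0.0251 and was the 1 gene of the 10 that passed. Ccr2, at 9.01 and 10.46 against 7.88 and 7.86 in control vegetable oil kidneys, differed by 1.86 ± 0.38 (adjusted p = 0.0623). Cxcl1 differed by 1.20 ± 0.38 (adjusted p = 0.201), with 7.3 and 7.21 in control vegetable oil kidneys. Cxcl2 differed by 1.05 ± 0.25 (adjusted p = 0.106), and Ccl20 by 0.85 ± 0.19 (adjusted p = 0.0817) from control levels of 6.95 and 6.78. Cx3cl1 was at 11.22 and 11.51 in control vegetable oil kidneys, and its difference of -0.07 had an interval of -0.38 to 0.24.

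**Figure D2:**
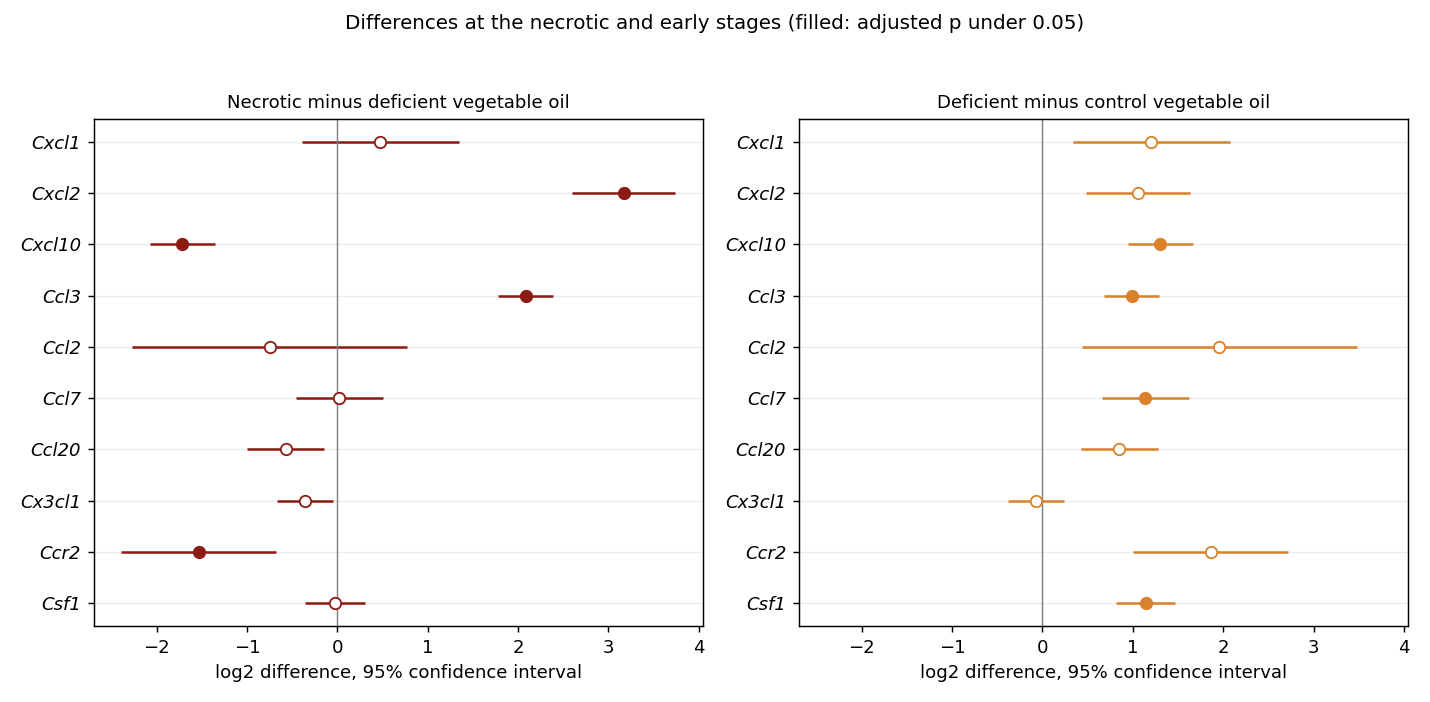
Log2 differences of the 10 genes with 95% confidence intervals, for necrotic minus deficient vegetable oil kidneys on the left and deficient minus control vegetable oil kidneys on the right; filled points had an adjusted p under 0.05. Cxcl2 (3.17) and Ccl3 (2.09) lay right of 0 and Cxcl10 (-1.71) and Ccr2 (-1.53) left of 0 on the left, and 9 of the 10 points lay right of 0 on the right.

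In necrotic relative to control vegetable oil kidneys 5 of the 10 genes rose (Cxcl1, Cxcl2, Ccl3, Ccl7 and Csf1), and none fell. Of all probe sets 20.9% were called, 10.2% that rose and 10.7% that fell. This comparison shares the control arrays with the early one, and the differences are set side by side only. The early log2 difference made up 25.0% of the necrotic one for Cxcl2 and 32.1% for Ccl3. It made up 71.6% for Cxcl1, 98.1% for Ccl7 and 102.1% for Csf1. The Cxcl1 share rests on unequal pools, since its early difference was 0.67 without deficient vegetable oil replicate 1 and 1.74 without replicate 2, against a necrotic difference of 1.68. Cxcl1, at 1.68 ± 0.38 (adjusted p = 0.0148), lost its call without necrotic replicate 1 or without either control array, with adjusted p between 0.0656 and 0.0824. Cxcl10 in necrotic kidneys was at -0.41 ± 0.16 relative to control (adjusted p = 0.103), Ccr2 at 0.33 ± 0.38 (interval -0.53 to 1.18) and Ccl20 at 0.28 ± 0.19 (interval -0.15 to 0.70). Ccl2 was at 1.21 ± 0.67 (adjusted p = 0.249), and at an adjusted p of 0.0206 when only these 2 groups were fitted. For these 4 genes the early-stage mean was the highest of the 3 vegetable oil groups. Cx3cl1 was at -0.43 ± 0.14 (adjusted p = 0.055).

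Under fish oil the choline-deficient pools were compared with choline-fed pools. Between deficient and control fish oil kidneys none of the 10 passed by limma, and none had an unadjusted p under 0.05. Of all probe sets 0% passed in either direction, and 1036 had an unadjusted p under 0.05. The 10 differences ran from -0.25 for Ccl7 to 0.18 for Csf1, with a median of 0.01. The intervals were -0.37 to 0.35 for Cxcl10, -0.19 to 0.41 for Ccl3, -0.15 to 0.51 for Csf1 and -0.52 to 0.63 for Cxcl2. For each of the 9 genes with a positive early difference under vegetable oil, the upper end of the fish oil interval lay below that estimate, which has an error of its own. For Ccl2 the interval was wide, at -1.41 to 1.64.

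The difference between oils was tested by an interaction term, with necrotic or with early-stage kidneys as the deficient vegetable oil side. The necrotic pools were labelled by their necrosis, so with them necrosis cannot be told apart from oil or lack of choline. With necrotic kidneys as that side, 4 of the 10 genes passed, all higher. Of all probe sets 8.72% were called, 3.82% higher and 4.9% lower. The genes that passed were Cxcl2 (4.17 ± 0.36, adjusted p = 0.000671), Ccl3 (2.96 ± 0.19, adjusted p = 0.000274), Ccl7 (1.41 ± 0.30, adjusted p = 0.0229) and Csf1 (0.94 ± 0.20, adjusted p = 0.0253). The Ccl7 and Csf1 calls ended without necrotic replicate 1, without either control vegetable oil array, without either deficient fish oil array or without control fish oil replicate 1. That of Ccl7 also ended without control fish oil replicate 2. With early-stage kidneys as the deficient side, 0 of the 10 passed by limma and 0.103% of all probe sets passed, 0.0958% higher and 0.00685% lower. There the estimate was positive for all but Cx3cl1, 8 of the 10 had an unadjusted p under 0.05 (as did 2892 of the 29214 probe sets), and the smallest adjusted p was that of Cxcl10 (1.31 ± 0.22, adjusted p = 0.0963).

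**Figure D3:**
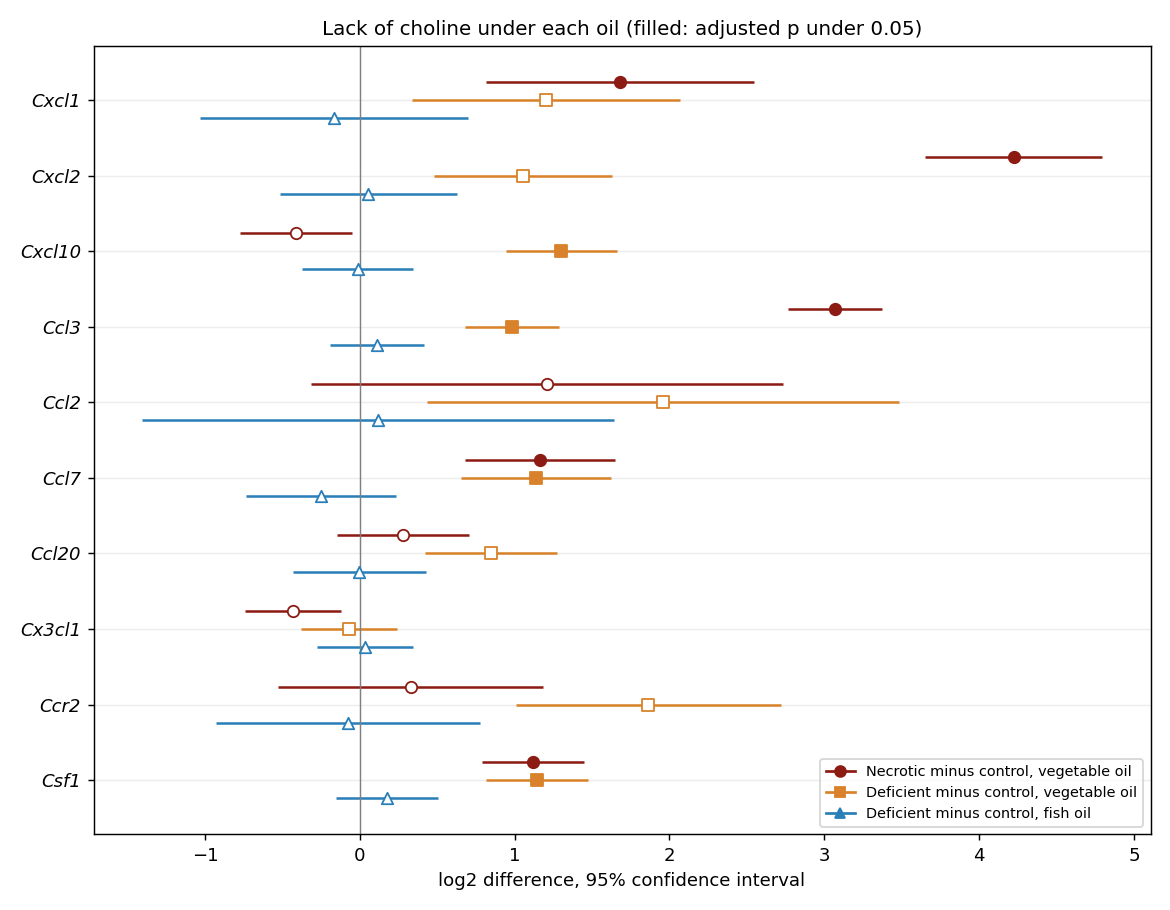
Log2 differences between choline-deficient and choline-fed kidneys with 95% confidence intervals, as circles for necrotic minus control and squares for deficient minus control kidneys under vegetable oil, and triangles for deficient minus control kidneys under fish oil; filled marks had an adjusted p under 0.05. All 10 fish oil intervals include 0, and the Cxcl2 circle lies at 4.22.

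Among choline-deficient kidneys, those given fish oil had lower mean levels of all 10 genes than early-stage vegetable oil kidneys, and 4 of the 10 fell, against 1.74% of all probe sets called, 1.39% that fell and 0.346% that rose. Ccr2 was at 6.98 and 7.23 in deficient fish oil kidneys, against 9.01 and 10.46 in deficient vegetable oil kidneys, and fell by 2.63 (SE 0.38, adjusted p = 0.0138), 6.19-fold. Without deficient vegetable oil replicate 2 the Ccr2 difference was -1.90. Csf1 was at 8.20 and 8.38 in deficient fish oil kidneys, against 9.98 and 9.90, and fell by 1.65 (SE 0.14, adjusted p = 0.00173). Cxcl10 fell by 1.84 (adjusted p = 0.00158) and Ccl3 by 1.18 (adjusted p = 0.00493). Ccl2 had the largest difference, -2.90 ± 0.67, and did not pass (adjusted p = 0.0805). The others ran from -1.18 for Cxcl2 to -0.53 for Cx3cl1. When only these 2 groups were fitted, 1 of the 10 passed (Csf1), without deficient fish oil replicate 2 the calls were those of Cxcl10 and Csf1, and without deficient fish oil replicate 1 that of Ccr2 ended.

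With choline given, oil alone moved none of the 10 past the threshold, against 0.185% of all probe sets called, 0.0856% higher and 0.0993% lower. Csf1 lay at 8.27 and 7.96 in control fish oil kidneys, against 8.72 and 8.87 in control vegetable oil kidneys. Cx3cl1 lay at 10.69 and 10.79 in control fish oil kidneys, against 11.22 and 11.51 in control vegetable oil kidneys. The groups did not overlap for either gene, with differences of -0.68 ± 0.14 (adjusted p = 0.138) for Csf1 and -0.63 ± 0.14 (adjusted p = 0.142) for Cx3cl1. Ccr2, at 7.31 and 7.05 in control fish oil kidneys against 7.88 and 7.86 in control vegetable oil kidneys, did not overlap either (-0.69 ± 0.38, adjusted p = 0.474). Ccl2 had the largest difference, -1.05 ± 0.67 (adjusted p = 0.532), with its fish oil pools far apart. Deficient fish oil kidneys had Cx3cl1 at 10.66 and 10.88, so the 4 fish oil arrays all lay below the 4 arrays of deficient and control vegetable oil kidneys. The neutrophil and T cell ligands had smaller mean differences between the choline-fed groups. Cxcl2 was at -0.19 ± 0.25, Cxcl1 at 0.29 ± 0.38 and Cxcl10 at -0.53 ± 0.16 (adjusted p = 0.258). Cxcl10 did not overlap between the choline-fed groups either, with 9.33 and 9.16 under fish oil and 9.76 and 9.78 under vegetable oil. The same held for Ccl3, lower under fish oil, and for Cxcl1 and Ccl7, higher under fish oil. With so few pools in each group, a lack of overlap can arise by chance and shows no effect of oil by itself. How many of all probe sets lacked overlap between the choline-fed groups was not counted.

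Other genes were counted in lists. Of all probe sets, named or not, 9.79% were called between necrotic and early-stage kidneys and 1.13% between early-stage and control kidneys. Named probe sets were called more often: with only the 15310 that had 1 symbol tested, 3036 were called between necrotic and early-stage kidneys. Counts between the stages, for the lists and for the 10 genes, are to be read against that larger share as well. Of 26 other chemokine ligands measured, 4 rose and 4 fell in necrotic relative to early-stage kidneys (median -0.31), and 4 rose and none fell in early-stage relative to control kidneys (median 0.30). Cxcl3 and Cxcl6, CXC ligands of the neutrophil-attracting kind, were higher in necrotic kidneys by 0.99 ± 0.17 (adjusted p = 0.00915) and 0.66 ± 0.12 (adjusted p = 0.0123). Ccl6, a CC ligand of rodents, was at 10.54 and 10.49 in necrotic kidneys, against 8.58 and 9.10 in deficient vegetable oil kidneys, and rose by 1.67 ± 0.18 (adjusted p = 0.00101). Pf4, the platelet chemokine, rose by 1.21 ± 0.13 (adjusted p = 0.00117). Cxcl3, Cxcl6, Pf4 and Ccl6 thus passed in the direction of Cxcl2 and Ccl3. Those that fell were Ccl4, Ccl19, Ccl24 and Xcl1, the last 3 at -0.59 ± 0.14, -0.62 ± 0.14 and -0.52 ± 0.13.

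Ccl4, the close relative of Ccl3, did not follow it. It was measured at 7.89 and 7.66 in necrotic kidneys, against 9.07 and 8.72 in deficient vegetable oil kidneys and 7.91 and 7.85 in control vegetable oil kidneys. Ccl4 fell by 1.12 between necrotic and early-stage kidneys (SE 0.14, adjusted p = 0.00242), and rose by 1.02 ± 0.14 between early-stage and control kidneys (adjusted p = 0.0159). Each of Ccl3 and Ccl4 was read from 1 probe set, and cross-hybridisation between these was not tested. Cxcl11, which shares the receptor Cxcr3 with Cxcl10, was at 10.58 and 11.20 in deficient vegetable oil kidneys, against 9.22 and 9.27 in control vegetable oil kidneys, and rose by 1.64 ± 0.26 (adjusted p = 0.0268). In necrotic kidneys Cxcl11 was at 10.51 and 9.93 (difference from early -0.67 ± 0.26, adjusted p = 0.158), and one of these pools lay close to the lower early-stage pool. Cxcl9, the third ligand of Cxcr3, was at -0.02 ± 0.36 in early-stage relative to control kidneys.

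Of 18 other chemokine receptors 2 rose and 2 fell between necrotic and early-stage kidneys, and 0 passed by limma at the early stage. Ccr1, a receptor of Ccl3, was at 8.02 and 8.10 in necrotic kidneys, against 5.94 and 6.91 in deficient vegetable oil kidneys, and rose by 1.64 ± 0.26 (adjusted p = 0.0065). Cxcr2, the receptor of Cxcl1 and Cxcl2 on neutrophils, was at 8.17 and 7.27 in necrotic kidneys, against 5.95 and 6.31, and rose by 1.59 ± 0.28 (adjusted p = 0.0106). Both receptors were therefore higher in the group in which the ligand Cxcl2 or Ccl3 was highest, while Ccr2 was lower there. Cx3cr1, the receptor of Cx3cl1, was at -0.19 ± 0.20 between necrotic and early-stage kidneys, and Cxcr3 at -0.12 ± 0.20. Ccr10 and Cxcr5, receptors of skin-homing T cells and B cells, fell by 0.69 and 0.81.

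**Figure D4:**
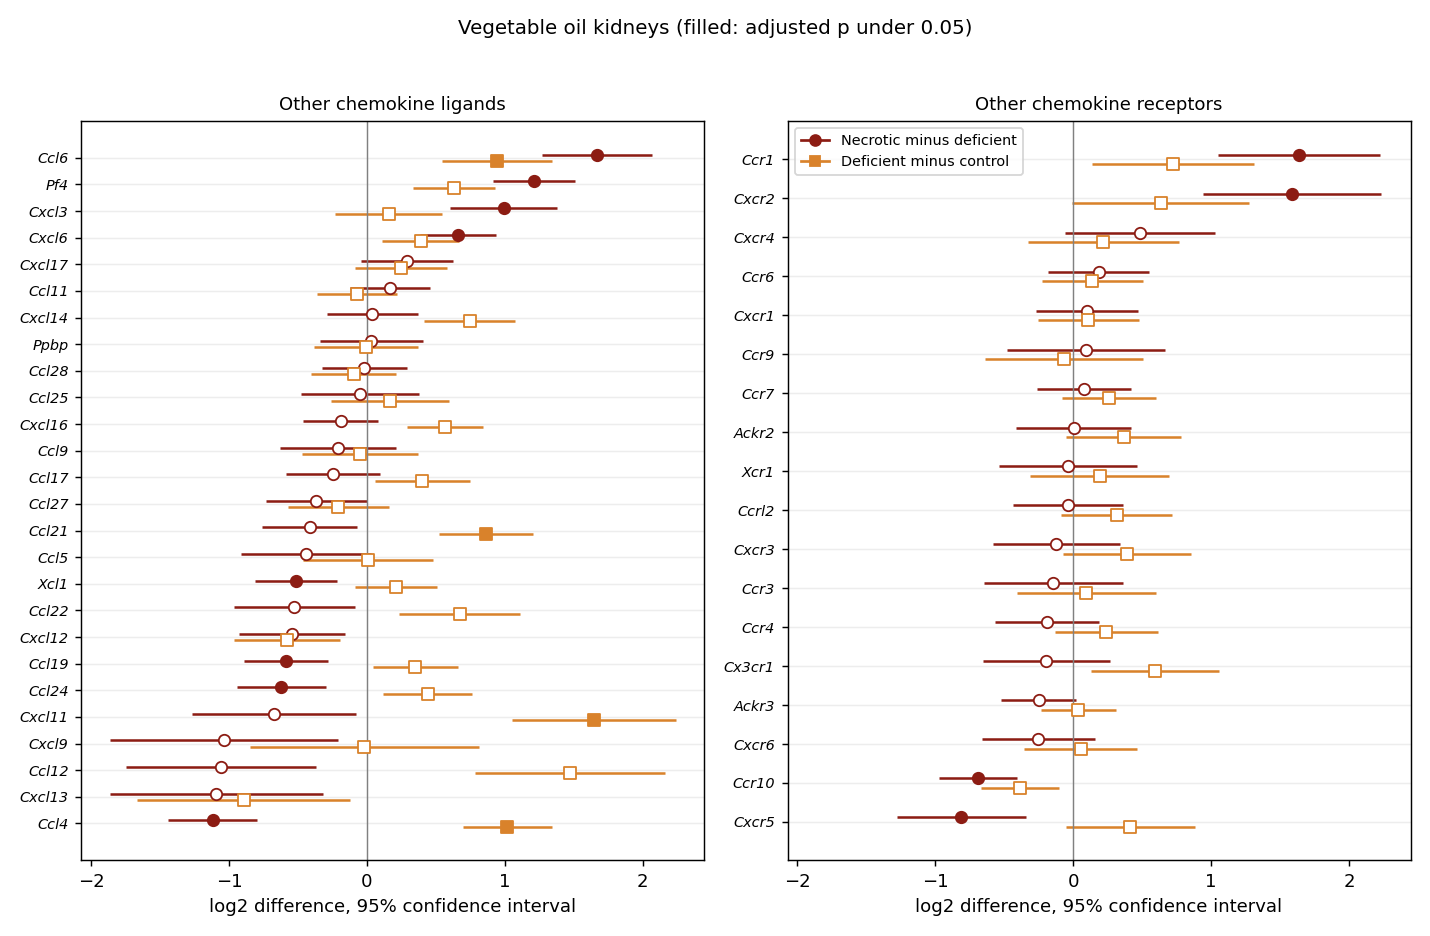
Log2 differences of 26 other chemokine ligands and 18 other receptors with 95% confidence intervals, as circles for necrotic minus deficient and squares for deficient minus control vegetable oil kidneys, sorted by the circles; filled marks had an adjusted p under 0.05. Ccl6 (1.67), Pf4, Ccr1 and Cxcr2 lie at the top with filled circles, and Ccl4 has a filled circle at -1.12 and a filled square at 1.02.

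Genes that induce or accompany chemokines were followed as lists. Of 16 cytokine and NF-kappaB genes 4 rose in necrotic relative to early-stage kidneys and 4 rose in early-stage relative to control kidneys, with none lower in either (medians 0.11 and 0.65). Nfkbiz, an NF-kappaB cofactor, was at 9.45 and 9.57 in deficient vegetable oil kidneys, against 7.79 and 7.87 in control vegetable oil kidneys, and rose by 1.68 ± 0.13 (adjusted p = 0.0011). Il6 rose by 1.94 ± 0.29 and Birc3, an NF-kappaB target that restrains cell death, by 1.03 ± 0.14 at the early stage. Il1r1, the receptor of interleukin 1, rose by 0.80 ± 0.11 at the early stage and was higher again in necrotic kidneys, by 1.00 ± 0.11. Of 12 leukocyte adhesion genes 2 rose in each comparison, a share closer to that of all probe sets between the stages (9.79%) than at the early stage (1.13%). Icam1, to which leukocyte integrins bind, rose by 1.53 ± 0.16 at the early stage (adjusted p = 0.0047) and was at -0.08 ± 0.16 between necrotic and early-stage kidneys. Selp, P-selectin, rose by 0.98 ± 0.17 at the early stage. Itgam, an integrin of monocytes and neutrophils, and Cd44 rose by 1.52 ± 0.30 and 1.31 ± 0.30 in necrotic relative to early-stage kidneys.

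Cxcl10 is itself an interferon-inducible gene, and other interferon response genes were counted beside it. Of 17 measured, 1 rose (Irf1) and none fell in early-stage relative to control kidneys, with a median of 0.01. Irf1, a transcription factor induced by interferon and NF-kappaB, was at 10.51 and 9.57 in deficient vegetable oil kidneys, against 8.42 and 8.52 in control vegetable oil kidneys, and rose by 1.57 ± 0.26 (adjusted p = 0.0296). Of the 17 differences 9 were positive and 8 negative there. Isg15, Mx1 and Ifit1 were at -0.06 ± 0.19, -0.42 ± 0.42 and -1.52 ± 0.88. Psmb8, Psmb9 and Tap1 were at 0.87 ± 0.17, 0.63 ± 0.275 and 0.61 ± 0.13, and none of these genes passed. Between necrotic and early-stage kidneys 1 of the 17 fell, the antiviral GTPase Mx2, at -1.80 ± 0.33, and none rose. That count is near the 5.08% of all probe sets that fell there. Of the other colony-stimulating factor genes, 7 measured, Csf3r, a receptor of neutrophils, rose by 0.91 ± 0.11 in necrotic relative to early-stage kidneys. Csf2rb fell by 1.83 there. Csf1r was at 0.45 ± 0.20 between the stages, and at 1.15 ± 0.20 in necrotic relative to control vegetable oil kidneys (adjusted p = 0.00424). Adam17, a protease that sheds Cx3cl1 from the cell surface, was at -0.11 ± 0.12 between necrotic and early-stage kidneys.

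Markers of leukocytes were counted beside the chemokines, and in bulk tissue the number of cells of a type and the RNA per cell cannot be told apart. Of 15 monocyte and macrophage markers 7 rose and 1 fell in necrotic relative to early-stage kidneys, and 3 rose in early-stage relative to control kidneys. The summed linear intensity of the 15 ranged from 24534 to 25394 in necrotic, 11588 to 16094 in deficient vegetable oil and 6675 to 6810 in control vegetable oil kidneys. It ranged from 5715 to 6766 in deficient fish oil and 5754 to 6372 in control fish oil kidneys. Mrc1, the mannose receptor, was at 10.29 and 10.55 in necrotic kidneys, against 7.13 and 7.70 in deficient vegetable oil kidneys, and rose by 3.00 ± 0.22. Cd163, the hemoglobin-haptoglobin receptor, rose by 2.62 ± 0.21 and Gpnmb by 2.28 ± 0.22. Adgre1, an adhesion receptor of resident macrophages, fell by 0.77 between necrotic and early-stage kidneys, in the same direction as Ccr2. Cd14 and Gpnmb had risen at the early stage by 1.55 ± 0.15 and 2.09 ± 0.22.

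Of 11 neutrophil markers 3 rose in necrotic relative to early-stage kidneys (Il1r2, S100a9 and Mmp8) and none fell. The granule genes Mpo and Elane were at -0.78 ± 0.38 and 0.24 ± 0.18 there, and neither passed. Without Lcn2, which injured tubules also make, the summed intensity of the list ranged from 1059 to 1622 in necrotic, 849 to 879 in deficient vegetable oil and 708 to 815 in control vegetable oil kidneys. It ranged from 579 to 661 in deficient fish oil and 600 to 714 in control fish oil kidneys. Of 9 lymphocyte markers none rose in either comparison and 1 fell in necrotic relative to early-stage kidneys, the cytotoxic granule gene Nkg7, which is near the 9.79% of all probe sets called there. Their sum ranged from 1562 to 1691 in necrotic, 1870 to 1971 in deficient vegetable oil and 1502 to 1769 in control vegetable oil kidneys. It ranged from 1286 to 1494 in deficient fish oil and 1365 to 1381 in control fish oil kidneys. RMA values have no true 0, so no marker can be called absent. The part of leukocyte number in the chemokine differences was not tested.

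**Figure D5:**
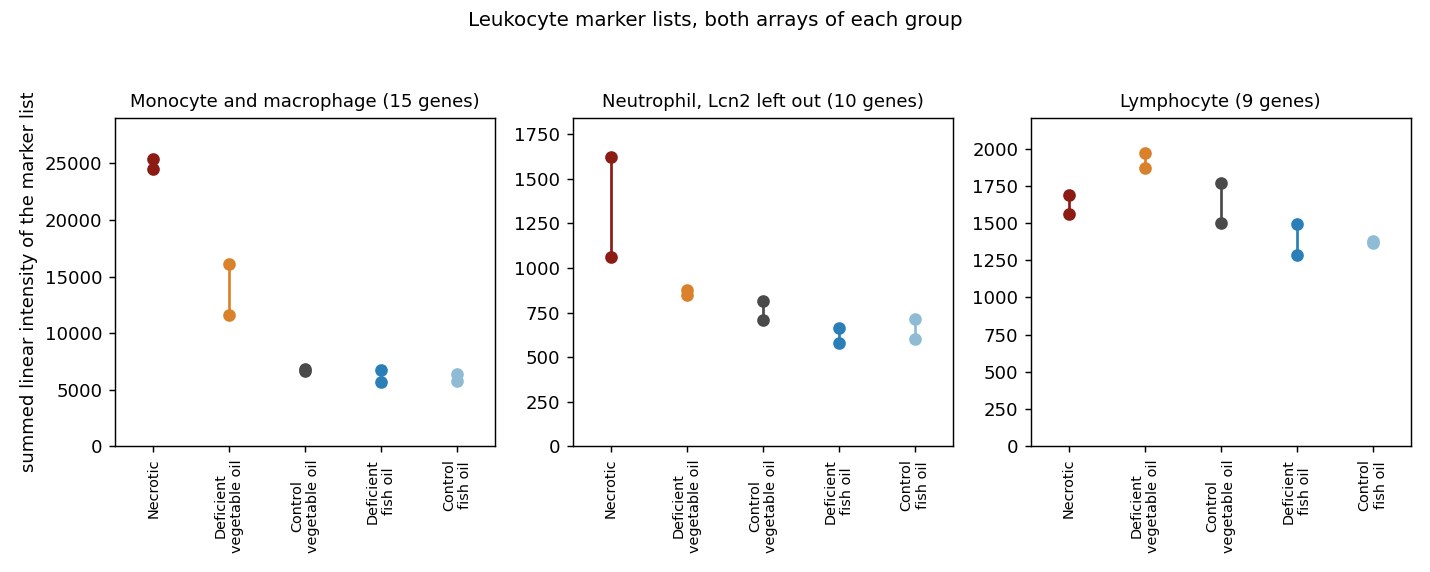
Summed linear intensity of the monocyte and macrophage, neutrophil (without Lcn2) and lymphocyte marker lists, with 1 point for each array and a line joining the arrays of a group; axes start at 0. The macrophage sum was 24534 to 25394 in necrotic kidneys and at most 6810 in control and fish oil kidneys, and the lymphocyte sum varied far less.

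Tubule genes fell in the same necrotic kidneys in which Cxcl2 and Ccl3 were highest. Of 6 proximal tubule markers 5 fell between necrotic and early-stage kidneys (median -1.92), and of 6 distal nephron markers 5 fell (median -1.95). At the early stage none of either list passed, with medians of -0.41 and -0.26, while 4 of 6 tubular injury genes rose, among them Havcr1, the kidney injury molecule of the proximal tubule, by 5.85 ± 0.60. Havcr1 was at 13.24 and 13.53 in necrotic kidneys, 11.82 and 13.11 in deficient vegetable oil and 6.67 and 6.56 in control vegetable oil kidneys. In deficient fish oil kidneys it was at 9.30 and 7.22, and in control fish oil kidneys at 6.49 and 6.37. Deficient fish oil replicate 1, the pool with the higher Havcr1, had Ccl2 at 11.36, and replicate 2 had it at 9.50. The control fish oil pools, both low in Havcr1, had Ccl2 at 11.27 and 9.36. A link between Havcr1 and Ccl2 was not tested. Of 6 endothelium markers 3 fell between necrotic and early-stage kidneys (Kdr, Tek and Emcn), and of 3 podocyte markers 1 fell (Nphs1, nephrin). The part of lost tubule RNA in the differences was not tested.

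For the 7 members called in any comparison, the genes with the most similar profile over the 10 arrays were found from the root mean square distance between mean-centred log2 values. The nearest genes to Ccl3 were Slc2a3, a glucose transporter, and Slc16a3, a lactate exporter, at distances of 0.152 and 0.209, where the profile of Ccl3 itself has a spread of 1.27. Slc2a3 was at 9.57 and 9.70 in necrotic, 7.16 and 7.74 in deficient vegetable oil and 6.57 and 6.62 in control vegetable oil kidneys. The nearest to Ccl7 were Gadd45b and Gadd45g, stress-induced growth arrest genes, at 0.142 and 0.162. Those nearest to Cxcl1 were Il1b, the cytokine interleukin 1 beta (0.196), and Mmp8, a neutrophil collagenase (0.26). Those nearest to Cxcl2 were Niban1 and A2m, alpha-2-macroglobulin, at 0.413 and 0.42 against its own spread of 1.69.

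The nearest gene to Cxcl10 was Slc10a2, the sodium-dependent bile acid transporter, at 0.227. Slc10a2 was at 8.14 and 8.33 in necrotic kidneys, against 9.55 and 9.52 in deficient vegetable oil kidneys, and at 8.16 and 8.10 in control vegetable oil kidneys. The second was Tnfsf10, the death ligand TRAIL, at 0.251. Ccr2 was nearest to Fcnb, a ficolin made by myeloid cells, at 0.298, and then to Cxcl11 at 0.419. Fcnb was at 8.67 and 8.37 in necrotic kidneys, against 10.20 and 10.87 in deficient vegetable oil kidneys, and at 8.32 and 8.41 in control vegetable oil kidneys. Csf1 was nearest to Rac2, a GTPase of blood cells (0.189), and Ccn1, a matricellular protein (0.195). These distances rank genes over the same 10 arrays and carry no test.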

How the data were processed

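Kidney RNA of 10 pools, each of 3 rats, was measured on 10 arrays, grouped by their labels. The authors deposited RMA values on the log2 scale, per the submitters' processing notes, and these were used unchanged. Which RMA program was run, in what version, is not given in these notes. Of 29214 probe sets 15310 had 1 gene symbol, 323 had several and 13581 were not listed and stayed unnamed. For a gene with several probe sets, that with the highest mean over the 10 arrays was kept; each of the 10 genes had 1. Updating symbols through RefSeq (GRCr8) changed 0.

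One limma 3.58.1 model (R 4.3.3, lmFit and eBayes) held the 5 groups and gave 8 contrasts, 2 of them interactions; degrees of freedom were 5 (residual) and 3.59 (prior). Benjamini-Hochberg adjustment ran across the whole table. The steps were tested on simulated data. The members and the other 15 gene lists were chosen with earlier results of these data known. Named genes were all members, up to 4 genes per list with the smallest p among those called between the stages or at the early stage, and the 2 nearest profiles per called member; other list genes were named after their values were seen. Alternatives were scaling, filters, the variance model, fewer groups, the replicate block and leaving out each array. No scan dates were used, so no batch was tested. The number of arrays limits the precision, and p-values measure spread between pools. Tables and figures were made in Python 3.11.15 with pandas 2.3.3.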

Additional observations from a re-analysis of the deposited data

Results flagged for a closer look

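By an interaction term, the difference between necrotic kidneys and control vegetable oil kidneys was larger than that between deficient and control fish oil kidneys for 4 of the 10 genes, where 8.72% of all probe sets were called. The log2 difference of differences was 4.17 for Cxcl2, 2.96 for Ccl3, 1.41 for Ccl7 and 0.94 for Csf1. The necrotic pools were labelled by their necrosis, so that necrosis and lack of choline cannot be told apart in this term. With the early-stage pools in their place 0 of the 10 genes passed by limma, and 8 had an unadjusted p under 0.05, as did 2892 of the 29214 probe sets. The Ccl7 call ended when any of 7 arrays was left out and the Csf1 call when any of 6 was, while those of Cxcl2 and Ccl3 held in each case. The fish oil difference was 0.06 for Cxcl2, 0.11 for Ccl3, -0.25 for Ccl7 and 0.18 for Csf1.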

How the results depend on the processing

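Counts are of the 10 genes called. Between necrotic and early-stage kidneys the count as reported was 4, and it was 3 to 4 under other settings and 3 to 5 when 1 array was left out. Between early-stage and control vegetable oil kidneys it was 4, and 1 when only the groups compared were fitted and 7 when only probe sets with 1 symbol were tested, and it ran from 0 to 5 when 1 array was left out. Between deficient fish oil and deficient vegetable oil kidneys it was 4, with 1 and 8 under the same settings and 2 to 5 with 1 array left out. For the early interaction it was 0, and 1 under the filter at the 50th percentile, the trend and robust prior and the test of probe sets with 1 symbol, and 0 to 1 with 1 array left out. For the necrotic interaction it was 4, and 2 to 5 with 1 array left out. The cause of these changes was not tested. Over all probe sets, calls between the stages numbered 2860 and 654 when only those groups were fitted. At the early stage they numbered 330, and 32 to 714 with 1 array left out.

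The replicate numbers were not taken to pair the pools, which the labels do not state. The correlation of within-group differences between groups was over 0.1 in 3 of 10 group pairs and ran from -0.173 to 0.136. With the replicate block the counts were 4 between the stages, 5 at the early stage and 6 for the deficient groups of the oils.

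Differences near 0 changed sign. Between the stages, Cxcl1 ran from -0.0603 to 1.01 with 1 array left out, with -0.05 without necrotic replicate 1. Ccl7 was -0.0271 after median centring and -0.0061 after cyclic loess, and ran from -0.27 to 0.311 with 1 array left out. Csf1 ran from -0.125 to 0.0762. At the early stage Cx3cl1 ran from -0.219 to 0.079. None of these was called with all arrays. Each gene had 1 probe set, so the rule for several had no effect. The filter at the 50th percentile gave no value for Cxcl2, Ccl7 and Ccl20.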

Other observations

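Ccl2 split the fish oil pools by replicate number. It was lower in replicate 2 than in replicate 1 by 1.86 in the deficient and 1.91 in the control fish oil group, and among named genes only 7 were lower by 1 or more in replicate 2 of both groups, with 0 higher. The others were Akr1b1, Akr1b8, Rab9b, Serpina3n, Slc14a2 and Ucp1, and Ccl2 had the largest smaller split of the 7. The labels do not say what, if anything, pools of the same number share.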
